A study of Homo sapiens with 9 samples.

Results

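The translocon and translocon-associated protein (TRAP) genes were taken by name: SSR1, SSR2, SSR3 and SSR4 for the TRAP subunits, SEC61A1, SEC61B and SEC61G for the SEC61 channel, SEC62 and SEC63 for its partners, and SRPRB for the receptor that brings ribosomes to it. Of these 10 genes, 8 had a probe set that named them alone, among 14207 genes measured on the same arrays. The channel's small subunits SEC61B and SEC61G were named by no probe set in the table and are not analysed here. The cells were ARPE-19, a human retinal pigment epithelial line, grown to confluence with serum and then kept in serum-free medium with albumin. They received vehicle, 100 µg/ml or 250 µg/ml of a commercial condensate of cigarette smoke supplied in DMSO, with 3 arrays in each group and 9 in all. Total RNA was hybridised to exon arrays, and each value is a log2 signal that summarises the probes of 1 transcript cluster. How long the cells were exposed is not stated in the labels. The labels do not say whether the arrays of a group stand for separate cultures. Each p-value therefore covers just the spread between these arrays, which may be technical. RNA came from whole cultures of 1 line, in which fewer cells carrying a transcript and less transcript per cell cannot be told apart.

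Proteins that are secreted or sit in membranes are made at the endoplasmic reticulum. The signal recognition particle catches the ribosome by the emerging signal sequence, its receptor (SRPRA and SRPRB) docks it on the membrane, and the chain passes through the SEC61 channel. TRAP sits beside the channel and helps chains whose signal sequences open it poorly, while SEC62 and SEC63 help chains that enter after their translation and bring in BiP, the lumenal chaperone. Genes of this machinery are known targets of the unfolded protein response, which enlarges the capacity of the reticulum when unfolded chains build up.

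The promoter sequences of the 3 genes with the largest changes against control, SSR3, SRPRB and SSR1, are shown so that the letters known to bind stress-response factors can be read in place. They are the 250 bases before the first listed start, from RefSeq on GRCh38.p14, written 5′ to 3′ on the gene's strand, and capitals mark every match to the motifs described after them.
SSR3, chr3:156555118-156555367, minus strand: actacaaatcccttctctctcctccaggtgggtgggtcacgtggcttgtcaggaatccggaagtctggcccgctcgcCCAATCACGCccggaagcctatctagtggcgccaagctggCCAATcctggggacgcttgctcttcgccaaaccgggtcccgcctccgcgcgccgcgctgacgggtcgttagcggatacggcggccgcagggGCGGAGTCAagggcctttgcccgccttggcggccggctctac
SRPRB, chr3:133805565-133805814, plus strand: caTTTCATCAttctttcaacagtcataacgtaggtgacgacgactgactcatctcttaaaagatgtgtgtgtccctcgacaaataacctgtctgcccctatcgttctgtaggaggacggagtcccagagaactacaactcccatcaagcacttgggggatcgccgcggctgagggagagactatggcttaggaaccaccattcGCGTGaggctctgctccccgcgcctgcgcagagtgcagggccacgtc
SSR1, chr6:7313200-7313449, minus strand: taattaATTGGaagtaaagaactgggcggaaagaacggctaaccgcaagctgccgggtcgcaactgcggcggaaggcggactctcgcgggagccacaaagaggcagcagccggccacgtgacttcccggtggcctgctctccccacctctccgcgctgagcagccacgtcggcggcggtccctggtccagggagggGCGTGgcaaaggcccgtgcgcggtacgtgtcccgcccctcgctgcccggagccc

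All 10 genes matched the promoter table, with 14 listed starts in all because SSR3 has 3 and SSR4 and SEC61A1 have 2 each. Windows ran from 250 bases before to 50 bases after each start, 7 motifs were searched on both strands, and 35116 such windows of all genes gave the background. Neither the endoplasmic reticulum stress element (CCAAT, 9 bases, then CCACG) nor its second form (ATTGG, 1 base, then CCACG) was found in a member window, and they occurred in 0.0769% and 0.0541% of all windows. The unfolded protein response element TGACGTGG occurred in 0.729% of all windows and in 3 of the 14 member windows, of SEC62, SSR3 and SSR4. The 3 matches are shown with their flanks, and the capitals mark the element as read on the opposite strand.
SEC62, start 1, chr3:169966779-169966808, plus strand: ccctcctcgctCCACGTCAgagggaaccgg
SSR3, start 3, chr3:156554148-156554177, minus strand: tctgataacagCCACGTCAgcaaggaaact
SSR4, start 2, chrX:153794528-153794557, plus strand: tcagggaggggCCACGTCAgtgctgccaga

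These matches began 17, 41 and 129 bases before the start of SEC62, SSR3 and SSR4. The antioxidant response core TGACNNNGC, which NRF2 binds, was in 13.3% of all windows and in 3 member windows of 2 genes, SSR3 and SSR4. In the third SSR3 window and the second SSR4 window it overlapped the unfolded protein response element, and in the first SSR3 window it stood apart, 42 bases before the start. The xenobiotic response core GCGTG, bound by the aryl hydrocarbon receptor, was in 36.5% of all windows and in 11 member windows of 7 genes. The amino acid response core TGATGNAA, which ATF4 binds, was in 3.62% of all windows and in 1 of the 14 member windows, that of SRPRB. CCAAT was in 34.6% of all windows and in 7 member windows of 6 genes. A match describes the letters, not a site in use, and the members' windows of 1 gene can overlap.

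The arrays were similar in level, with medians between 4.42 and 4.59 on the log2 scale and correlations within a group between 0.970 and 0.992. Control array 1 had the lowest median of the 9. Of 13 retinal pigment epithelium markers 12 were measured, and 6 lay above the median of all genes (4.65), among them the keratin KRT8 at 10.94 and the transcription factor OTX2 at 8.86. The visual cycle genes RPE65 and RLBP1 were at 2.49 and 2.96, and BEST1 and TTR at 2.75 and 2.71, so these defining markers of the mature epithelium were at low signal. The mean of the 12 markers ranged from 5.49 to 5.90 over the control arrays, from 5.25 to 5.55 over those of the lower dose and from 5.23 to 5.54 over those of the higher dose. The median change of these markers was -0.20 at 100 µg/ml and -0.27 at 250 µg/ml, none passed the test, 2 and 1 were lower at an unadjusted p under 0.05 and none higher, and the pigment enzyme TYRP1 differed most at 250 µg/ml (-1.14 ± 0.77, SE). Their part in the members' results was not tested. All 5 endothelial markers lay below the median of all genes, with means of 2.78 to 2.87 over the control arrays, 2.68 to 2.83 over the lower dose and 2.73 to 2.77 over the higher. Of 4 leukocyte markers measured 1, CD68, lay above it at 9.17, PTPRC was at 2.66, and the list's mean was 4.63 to 5.05, 4.60 to 4.96 and 4.70 to 4.72 in the same order. No endothelial or leukocyte marker passed the test at either dose. At an unadjusted p under 0.05 none was higher, and 1 leukocyte marker, PTPRC, was lower at each dose. The epithelial markers lower in this sense were KRT8 and RPE65 at 100 µg/ml and RPE65 at 250 µg/ml. RPE65 and PTPRC were at low signal. Of all genes, 14.6% at 100 µg/ml and 16.6% at 250 µg/ml had such a p in either direction, so nothing is read from these counts.

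SSR3 carried the clearest response to the condensate among these genes, and it rose 2.80-fold at 250 µg/ml (95% interval 1.91 to 4.12). At 250 µg/ml 7 of the 8 measured genes had a higher mean than control and SSR4 a lower one, and the same 7 lay above control at 100 µg/ml. SSR3, SRPRB, SSR1 and SEC61A1 were above all control arrays on every treated array of both doses. SSR2, SSR4, SEC62 and SEC63 overlapped their controls at both doses. The median change of the 8 genes was 0.47 at 100 µg/ml and 0.56 at 250 µg/ml (log2), beside -0.05 and -0.04 over all genes. By mean signal the 8 genes were bright, from percentile 80.2 (SEC62) to 99.7 (SSR2) of all genes. With the genes of below-median signal left out, the median over all remaining genes was 0.05 and 0.09. The shares given below are over all genes, and those among genes as bright as the members were not computed.

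The test was limma on all 9 arrays, with p-values adjusted by Benjamini and Hochberg over 14207 genes and a threshold of 0.05. At 250 µg/ml 1 of the 8 members passed, against 0.549% of all genes, and 5 of 8 had an unadjusted p under 0.05, all of them higher, against 16.6% of all genes in either direction. The 4 members that did not overlap their controls here compare with 8.61% of all genes that were higher in this way, and the 7 with a higher mean compare with 42.7%. At 100 µg/ml none of the 8 passed, against 0.0633% of all genes, and 4 of 8 had an unadjusted p under 0.05, all of them higher, against 14.6% in either direction. Non-overlap upward was seen for 4 members at 100 µg/ml against 6.41% of all genes, and a higher mean for 7 against 40.8%. Both comparisons use the same 3 control arrays, so they are not independent of each other. The plot of members by array shows the values behind these counts.

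**Figure D1:**
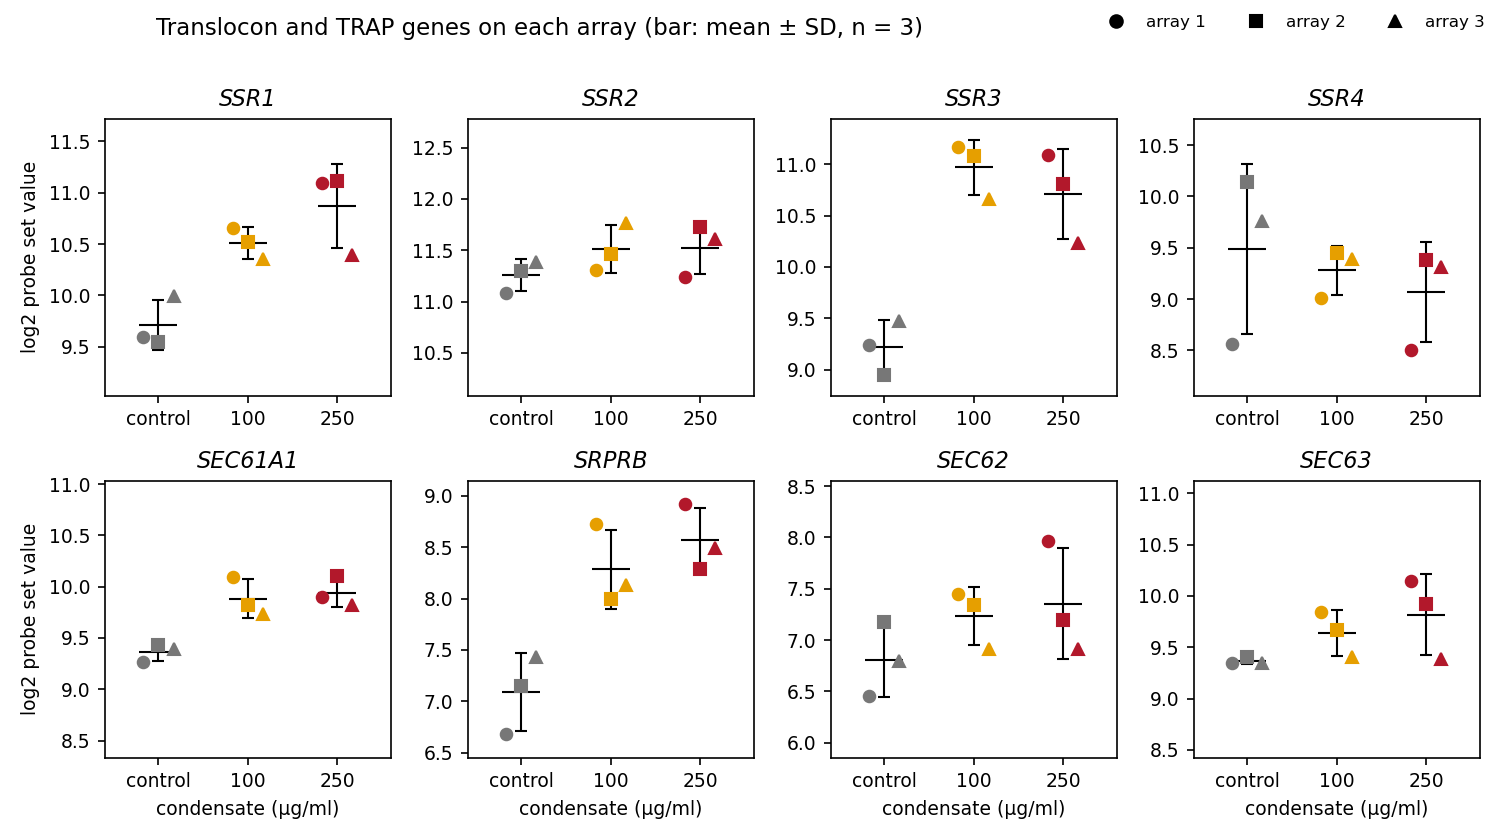
Log2 signal of the 8 measured translocon and TRAP genes on each of the 9 arrays (vertical axis) by group (horizontal axis: vehicle control, 100 and 250 µg/ml condensate), with numbered points for arrays and a bar for each group's mean. SSR3, SRPRB, SSR1 and SEC61A1 lie above all controls at both doses, and SSR4 spans 8.56 to 10.14 within the controls alone.

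SSR3 encodes the gamma subunit of TRAP, which spans the membrane several times and lies against the ribosome. Its control arrays read 9.24, 8.95 and 9.48. At 100 µg/ml SSR3 read 11.17, 11.08 and 10.66, and at 250 µg/ml 11.09, 10.81 and 10.23. Every treated array was above every control array, and array 3 was the lowest at both doses. The difference from control was 1.75 ± 0.24 (log2, SE, n = 3 per group) at 100 µg/ml, 3.36-fold with a 95% interval of 2.29 to 4.94, and its adjusted p of 0.0713 missed the threshold. At 250 µg/ml SSR3 rose by 1.49 ± 0.24 with an adjusted p of 0.0491, which lies close to the threshold. That call was lost in 7 of the 16 alternatives tried, among them leaving out control array 1 (adjusted p 0.0641), control array 2 (0.0970), array 1 (0.161) or array 2 (0.196) of the 250 µg/ml group. Over those alternatives the difference stayed between 1.30 and 1.73.

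SSR1 encodes the alpha subunit, which reaches into the lumen and binds calcium. It read 9.59, 9.55 and 10.00 in controls. With 100 µg/ml SSR1 read 10.66, 10.53 and 10.35, and with 250 µg/ml 11.10, 11.11 and 10.40. The groups did not overlap with control at either dose, and array 3 was the lowest of both treated groups. SSR1 differed from control by 0.80 ± 0.21 at 100 µg/ml (1.74-fold, adjusted p 0.210) and by 1.16 ± 0.21 at 250 µg/ml (2.23-fold, adjusted p 0.0551), so neither dose passed.

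SSR2 encodes the beta subunit. Its controls read 11.08, 11.30 and 11.39, its 100 µg/ml arrays 11.31, 11.47 and 11.77, and its 250 µg/ml arrays 11.24, 11.73 and 11.61. These groups overlap, and array 1 was the lowest in each of them. The difference was 0.26 ± 0.17 at 100 µg/ml (adjusted p 0.505) and 0.27 ± 0.17 at 250 µg/ml (adjusted p 0.456). The value at 100 µg/ml was 0.17 without control array 1 and 0.13 without array 3 of that dose. The value at 250 µg/ml was 0.41 without array 1 and 0.17 without array 2 of that dose.

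SSR4 encodes the delta subunit and is X-linked. In controls SSR4 read 8.56, 10.14 and 9.76, a range of 1.58. Treated arrays read 9.01, 9.45 and 9.39 at 100 µg/ml and 8.50, 9.38 and 9.31 at 250 µg/ml. The treated values lie inside the control range except for array 1 at 250 µg/ml, and array 1 was the lowest in every group. Its pooled standard deviation of 0.570 was at percentile 95.7 of all genes, beside a median of 0.217 over all genes and 0.312 over the 8 members. SSR4 differed from control by -0.21 ± 0.40 at 100 µg/ml (adjusted p 0.849) and by -0.42 ± 0.40 at 250 µg/ml (adjusted p 0.623), with no call at either dose. Single arrays decided both values. At 100 µg/ml the difference was -0.67 without control array 1, 0.12 without control array 2, -0.071 without control array 3 and -0.069 without array 1 of that dose. At 250 µg/ml SSR4 differed by -0.88 without control array 1, by -0.093 without control array 2 and by -0.14 without array 1 of that dose.

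The 4 TRAP subunits assemble in equal number, so the difference between a pair of them on the same array was compared across groups, which cancels any shift shared by an array. Differences between probe sets carry each probe set's own response and are read here for their shift between groups, not as a ratio of transcripts. The SSR3 minus SSR2 difference was 1.49 higher at 100 µg/ml than in controls and 1.22 higher at 250 µg/ml, with no overlap of arrays. SSR3 minus SSR4 was 1.95 and 1.91 higher, again without overlap. SSR1 minus SSR2 was 0.54 higher at 100 µg/ml, with overlap, and 0.89 higher at 250 µg/ml, without it. The SSR3 signal thus stood higher relative to SSR2 and to SSR4 on every treated array than on any control array.

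SSR3 and SSR1 also moved by different amounts. Their difference, SSR3 minus SSR1, was -0.49 ± 0.13 (SD, n = 3) in controls, 0.46 ± 0.13 with the lower dose and -0.16 ± 0.15 with the higher dose, and no group overlapped another. The shift was 0.95 at 100 µg/ml and 0.33 at 250 µg/ml, and the doses differed from each other by -0.62. With 3 arrays against 3 the 2-sided exact permutation test can give no p below 0.1, which is what these non-overlapping pairs gave. Over 27 such tests of 9 pairs the Benjamini-Hochberg value was 0.27, so none passed the threshold. Arrays did not overlap for 4 of the 9 pairs at 100 µg/ml, 5 of 9 at 250 µg/ml and 1 of 9 between the doses. These pairs share genes and are not separate results. Each non-overlapping pair held SSR3 or SSR1 or, for SEC61A1 with SEC63 at 100 µg/ml, SEC61A1, and these genes themselves did not overlap their controls. The share of such pairs among other genes was not computed, so nothing is read from these counts. The plot of TRAP differences gives each array.

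**Figure D2:**
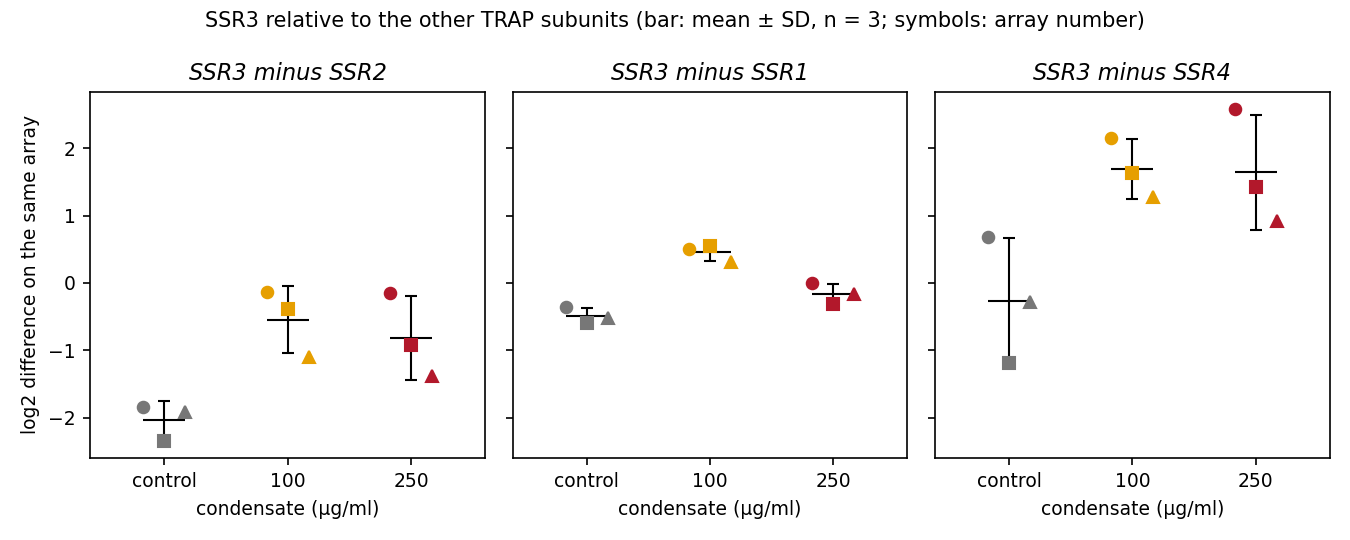
Difference in log2 signal between pairs of TRAP subunits on the same array (vertical axis) for vehicle control, 100 and 250 µg/ml condensate (horizontal axis), 1 point per array and a bar for the mean of 3. SSR3 minus SSR1 goes from a mean of -0.49 in controls to 0.46 at 100 µg/ml and -0.16 at 250 µg/ml.

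SEC61A1 encodes the pore-forming alpha subunit of the channel. It read 9.27, 9.43 and 9.39 in controls. At 100 µg/ml SEC61A1 read 10.09, 9.83 and 9.73, and at 250 µg/ml 9.90, 10.10 and 9.82. All treated arrays were above the controls, and the gap between the lowest treated and the highest control array was 0.30 for the lower dose and 0.39 for the higher. Its pooled standard deviation was 0.144, below the median of all genes. SEC61A1 differed from control by 0.52 ± 0.13 at 100 µg/ml (1.44-fold, adjusted p 0.199) and by 0.58 ± 0.13 at 250 µg/ml (1.49-fold, adjusted p 0.0808), and neither passed.

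SRPRB encodes the membrane-anchored beta subunit of the signal recognition particle receptor. Controls read 6.68, 7.15 and 7.44. SRPRB read 8.73, 7.997 and 8.13 at 100 µg/ml and 8.92, 8.29 and 8.49 at 250 µg/ml. Every treated array lay above the controls, and array 1 was the lowest control but the highest array of both treated groups. The difference was 1.20 ± 0.26 at 100 µg/ml (2.29-fold, adjusted p 0.181) and 1.48 ± 0.26 at 250 µg/ml (2.79-fold, adjusted p 0.0520), so SRPRB lay just outside the threshold at the higher dose.

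SEC62 and SEC63 are the partners of the channel, and SEC63 carries the J domain that recruits BiP. SEC62 read 6.45, 7.18 and 6.80 in controls, 7.45, 7.34 and 6.91 at 100 µg/ml and 7.96, 7.19 and 6.91 at 250 µg/ml. SEC63 read 9.35, 9.40 and 9.35 in controls, 9.84, 9.67 and 9.40 at 100 µg/ml and 10.15, 9.92 and 9.38 at 250 µg/ml. For both genes arrays 1 and 2 were above the controls at each dose while array 3 reached into their range. SEC62 differed from control by 0.42 ± 0.29 (adjusted p 0.526) and 0.55 ± 0.29 (adjusted p 0.391) at the lower and higher dose. Without control array 1 the SEC62 value at 100 µg/ml was 0.24, and without array 1 of the 250 µg/ml group the value there was 0.24. SEC63 differed by 0.27 ± 0.20 (adjusted p 0.542) and 0.45 ± 0.20 (adjusted p 0.300), and by 0.17 and 0.28 without array 1 of the treated group. Among the channel and its partners, the SEC61A1 minus SEC63 difference did not overlap between controls and 100 µg/ml, where it was 0.25 higher, and the other pairs overlapped at both doses.

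**Figure D3:**
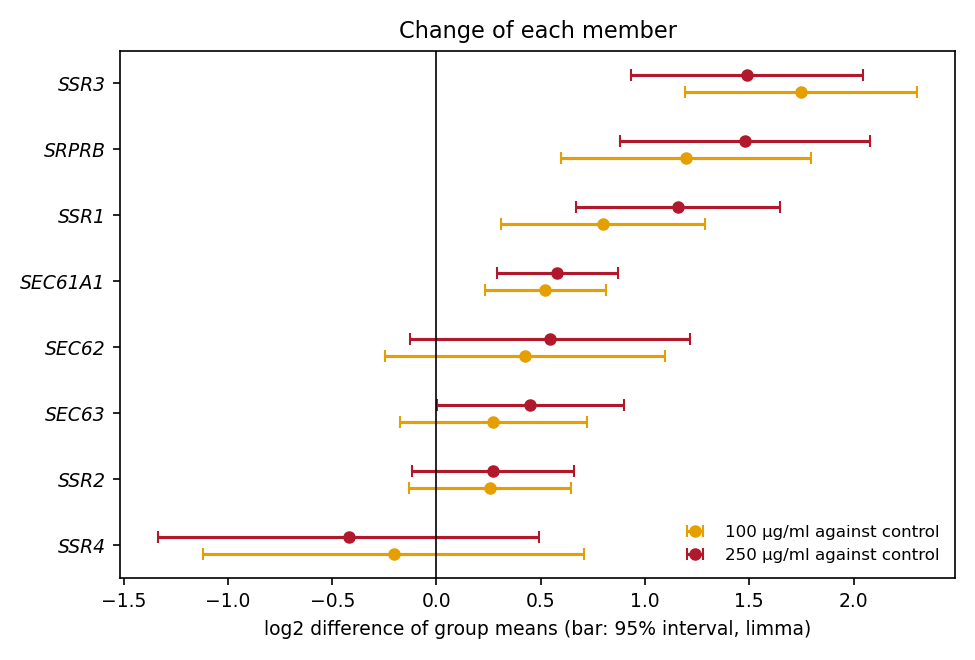
Log2 difference of each measured gene (vertical axis: gene) from vehicle control at 100 and 250 µg/ml (horizontal axis), with 95% intervals from limma over all 9 arrays. SSR3 has the largest difference at each dose, 1.75 and 1.49.

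Other probe sets that name these genes had low signal. A further probe set of SEC62 had a mean of 3.22 and differed by 0.43 at 100 µg/ml and 0.17 at 250 µg/ml. A probe set shared by KCNAB1 and SSR3 had a mean of 2.72 and one shared by TF and SRPRB a mean of 2.90, with differences from control between -0.12 and 0.01. The SSR4 pseudogene SSR4P1 had a mean of 3.19 and differences of -0.08 and -0.07.

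Between 250 and 100 µg/ml none of the 8 members passed, where 0% of all genes did, and none had an unadjusted p under 0.05, where 1.84% did. All 8 overlapped between the doses, and 6.17% of all genes did not. The median difference of the members was 0.09, beside 0.01 over all genes. SSR1 had the largest difference, 0.36 ± 0.21 with a 95% interval of -0.13 to 0.85, and SSR3 was lower at the higher dose by a value of -0.26 ± 0.24 (-0.82 to 0.29). SRPRB differed by 0.28 ± 0.26, SEC63 by 0.18 ± 0.20, SEC62 by 0.12 ± 0.29, SEC61A1 by 0.06 ± 0.13, SSR2 by 0.01 ± 0.17 and SSR4 by -0.22 ± 0.40. The 95% intervals of all 8 members between the doses included 0, which does not show that the doses act alike. These intervals come from the main fit, which does not use the array numbers. Arrays of the same number in the 2 treated groups deviated together over all genes, and the same-numbered differences were therefore also read. SSR3 was lower at 250 than at 100 µg/ml for all 3 numbers, by values of -0.07, -0.27 and -0.44. SSR4 was also lower for all 3, by values of -0.51, -0.07 and -0.08. SRPRB was higher for all 3, by 0.19, 0.30 and 0.36, and so was SSR1, by 0.44, 0.59 and 0.05. The share of all genes with all 3 differences in 1 direction was not computed, so nothing is read from these counts. A fit with the array number as a block left every adjusted p at 1.0.

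The members' levels also differed between the arrays of a group. After each gene was centred on its mean over 9 arrays, the mean over the 8 genes was -0.70, -0.34 and -0.28 on control arrays 1, 2 and 3, then 0.30, 0.19 and 0.07 at 100 µg/ml and 0.38, 0.34 and 0.04 at 250 µg/ml. Control array 1 was the lowest control in 6 of 8 genes, and the arrays numbered 3 were the lowest in 5 of 8 at each dose. The share of all genes with these orders was not computed, and control array 1 also had the lowest median over all probe sets. Array 1 was thus the lowest on average among controls but the highest in both treated groups, and an effect of array number was not tested. Without both treated arrays numbered 3, SSR3 passed at 100 µg/ml (adjusted p 0.0307), and SSR3 and SSR1 passed at 250 µg/ml (0.0209 and 0.0255). Those arrays were the lowest treated ones for SSR3 and SSR1 at both doses, and leaving them out was chosen after seeing the data. The calls are therefore not evidence for these genes. Over all genes, 47 were called at 100 µg/ml in that fit, against 9 in the main fit. Whether array number stands for a shared culture or day is not stated.

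Across the 9 arrays the 28 pairs of members had a median correlation of 0.66, from -0.46 to 0.91, as a description over arrays that share groups. The 21 pairs without SSR4 had a median of 0.74, and 0.43 after each group's mean was removed. SSR1 and SSR3 correlated at 0.90 over the arrays and 0.92 within groups. The 7 pairs with SSR4 had a median of -0.29 over the arrays and -0.004 within groups. SSR4 went with SSR2 at 0.38 over the arrays and 0.73 within groups, in each of which both were lowest on array 1. Over the arrays SSR2 correlated as much or more with SEC61A1 (0.48), SSR1 (0.42) and SRPRB (0.40), but within groups at -0.12, -0.20 and -0.33. SSR2 and SSR3 correlated at 0.38 over the arrays and -0.53 within groups.

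**Figure D4:**
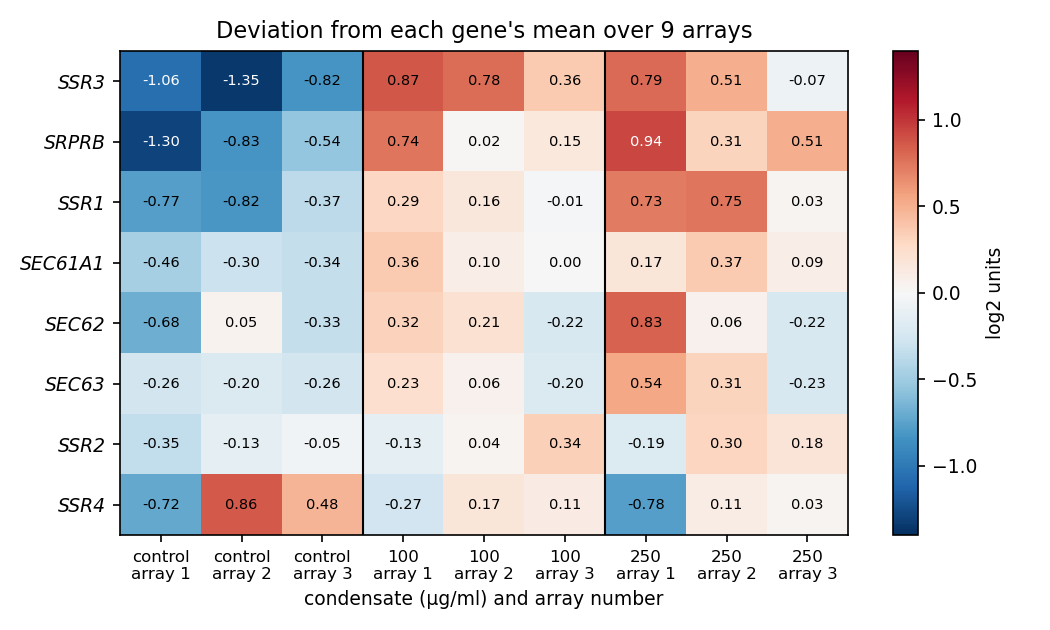
Deviation of each measured gene (vertical axis) from its mean over the 9 arrays, in log2 units by colour, for each array (horizontal axis) grouped as vehicle control, 100 and 250 µg/ml. Control arrays are below the gene's mean for 7 of 8 genes on average, and for SSR4 the control mean is the highest of its 3 groups.

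Genes that act before, beside and after the channel were read as lists. The lists were chosen with earlier results of these data known, so their counts are not independent evidence of a direction. For BiP and its co-factors, 1 of 8 measured genes rose at 100 µg/ml, against 0.0633% of all genes called in either direction, and 3 rose at 250 µg/ml, against 0.549%. At an unadjusted p under 0.05, 5 were higher at the lower dose and 6 at the higher, with none lower, against 14.6% and 16.6% of all genes in either direction. The median difference of this list was 0.69 and 0.86. HYOU1, an exchange factor for BiP, rose by 1.55 ± 0.19 at 100 µg/ml (adjusted p 0.0487) and by 1.77 ± 0.19 at 250 µg/ml (0.0111). At 250 µg/ml the BiP co-chaperone DNAJB11 rose by 0.99 ± 0.13 (0.0239), and DNAJC3, a co-chaperone that also restrains the kinase PERK, rose by 1.06 ± 0.18 (0.04999). The calls of HYOU1 at 100 µg/ml and of DNAJC3 lie close to the threshold. The alternative settings were not read for the genes of this list. In the same list DNAJB9 differed by 0.04 and -0.004 and SIL1 by 0.17 and 0.17 at the lower and higher dose. HSPA5, which encodes BiP, read 7.86, 8.81 and 7.90 in controls, 9.29, 9.22 and 8.32 at 100 µg/ml and 9.16, 9.22 and 8.76 at 250 µg/ml. Its groups overlapped through control array 2, and it differed by 0.75 ± 0.33 (adjusted p 0.339) and 0.86 ± 0.33 (0.247).

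No gene passed in the other lists of the pathway at either dose. Their counts at an unadjusted p under 0.05 are to be read against the same 14.6% of all genes at 100 µg/ml and 16.6% at 250 µg/ml. In the signal recognition particle and receptor list, 6 of 7 genes were measured, 2 were higher at an unadjusted p under 0.05 at each dose, and the median difference was 0.38 and 0.35 at 100 and 250 µg/ml. SRPRA, the partner of SRPRB in the receptor, differed by 0.82 ± 0.15 at 100 µg/ml (adjusted p 0.130) and by 0.83 ± 0.15 at 250 µg/ml (0.0520). In the signal peptidase complex, which cuts the signal off, 3 of 5 genes were measured, 2 were higher at an unadjusted p under 0.05 at each dose, and the median was 0.61 and 0.63. SEC11C, a catalytic subunit of it, differed by 1.52 ± 0.34 (0.181) and 1.69 ± 0.34 (0.0655). For the oligosaccharyltransferase, which adds glycans as chains enter, 10 of 12 genes were measured, 5 were higher at an unadjusted p under 0.05 at each dose, and the median was 0.41 and 0.44. STT3B, a catalytic subunit, differed by 0.43 ± 0.18 (0.322) and 0.61 ± 0.18 (0.151).

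Accessory and multipass factors of the translocon gave 10 of 11 genes, of which 2 and 3 were higher at an unadjusted p under 0.05, with medians of 0.30 and 0.31. TMCO1, part of the multipass translocon, differed by 0.85 ± 0.25 (adjusted p 0.222) and 1.07 ± 0.25 (0.0931). The ER membrane protein complex, an insertase, gave 9 of 10 genes, of which 3 and 2 were higher in that sense, with medians of 0.31 and 0.32, and EMC3 differed by 0.85 ± 0.33 (0.296) and 1.26 ± 0.33 (0.118). The COPII coat, which carries proteins onward from the reticulum, gave 8 of 12 genes, of which 2 and 3 were higher, with medians of 0.26 and 0.37, and SAR1B differed by 0.77 ± 0.29 (0.292) and 1.04 ± 0.29 (0.139). The counts at an unadjusted p under 0.05 in these 3 lists, 2 or 3 genes in each, are small, and nothing is read from them against those shares. Their medians were above the median of all genes at both doses. The tail-anchor insertion route, which does not use the SEC61 channel, gave 5 of 7 genes, none at an unadjusted p under 0.05, with medians of 0.06 and 0.16, and GET1 differed by 0.32 ± 0.28 (0.612) and 0.29 ± 0.28 (0.625). Proteins of the large ribosomal subunit gave 8 of 22 genes, of which 1 was lower at an unadjusted p under 0.05 at 100 µg/ml and none at 250 µg/ml, with medians of -0.03 and -0.15. RPL35, whose probe set had a low mean signal of 3.44, differed by 0.09 ± 0.60 (0.962) and -1.27 ± 0.60 (0.335). No difference between these lists was tested.

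**Figure D5:**
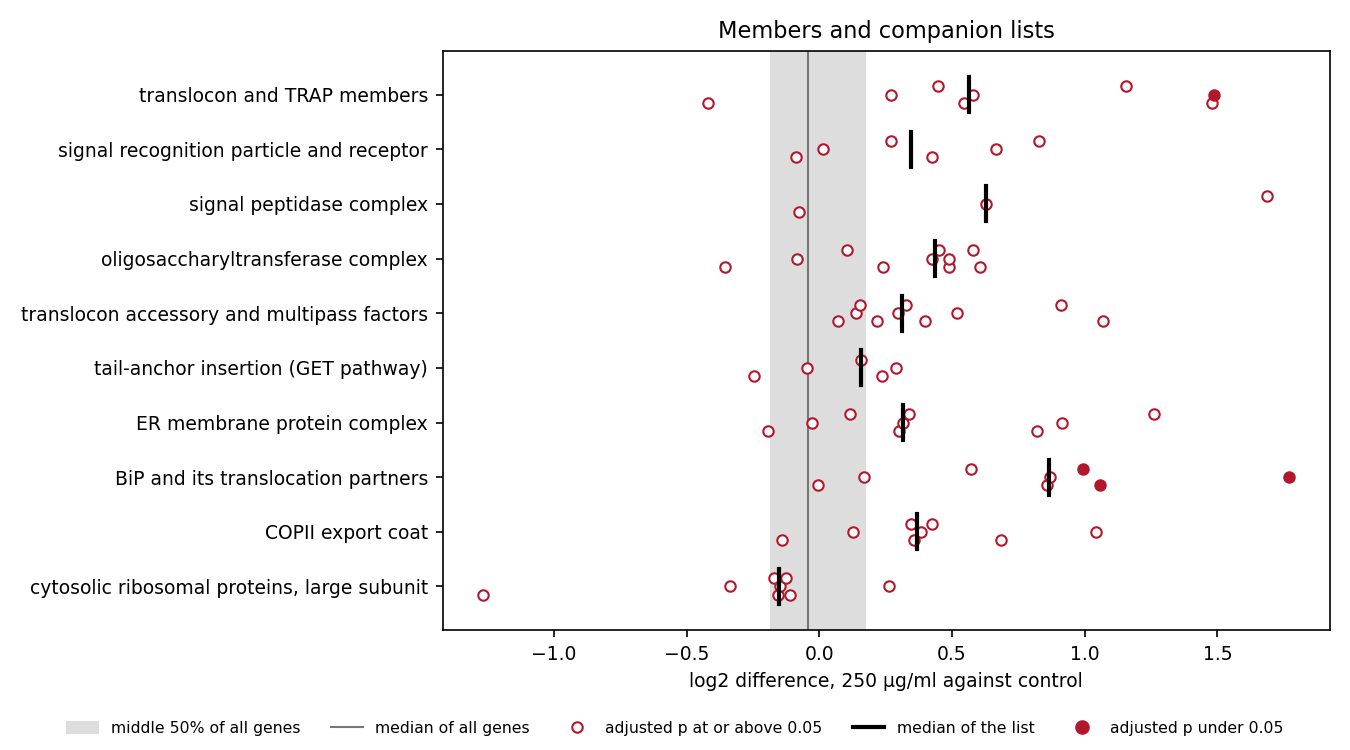
Log2 difference from vehicle control (horizontal axis) of each measured gene in the member list and the 9 companion lists (vertical axis) at 250 µg/ml, 1 point per gene, with the list's median marked. The BiP list has the highest median, 0.86, and the ribosomal list a median of -0.15.

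The genes whose values over the 9 arrays ran most like those of SSR3 were SERINC2 (Pearson correlation 0.973), HAT1 (0.965), VDR (0.962), PSAT1 (0.961) and WDCP (0.960). PSAT1, an enzyme of serine synthesis, differed from control by 3.57 ± 0.61 at 100 µg/ml (adjusted p 0.130) and by 3.42 ± 0.61 at 250 µg/ml (0.0521). The genes most like the mean of the 8 members were DNTTIP2 (0.991), CEP15 (0.986), PLPP5 (0.978), TMED2 (0.976) and PRMT3 (0.975). TMED2, a cargo receptor between the reticulum and the Golgi, differed by 0.49 ± 0.17 (0.267) and 0.62 ± 0.17 (0.138). None of these 10 genes passed the threshold at either dose, and the correlations are over arrays that share the same groups.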

How the data were processed

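Per the labels' protocols, total RNA was labelled by a whole-transcript sense-target assay and hybridised to Affymetrix exon arrays. The authors deposited log2 values per transcript cluster, made with RMA in Partek on hg18, per the submitters' processing notes. They were used as deposited, without further scaling. Of 17629 probe sets, 14378 named 1 gene, 2405 several and 846 none. Symbols were updated through RefSeq, in which 28 single-gene identifiers were not found, and the probe set of highest mean was kept for 169 genes with several, leaving 14207 genes.

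limma 3.58.1 in R 4.3.3 fitted 1 mean per group over all 9 arrays, with default moderation. Intervals are 95%. Pairs of genes were compared by exact permutation (scipy 1.17.1), and figures used matplotlib 3.10.9. The fit was tested on simulated data. The number of arrays limits the precision.

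The members and lists were chosen with earlier results of these data known. All members are named, with up to 3 genes past the threshold per companion list, or the one of largest difference at 250 µg/ml, plus HSPA5, and the 5 genes most like SSR3 and the members' mean.

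Same-numbered arrays of both doses deviated together (correlations 0.60, 0.44 and 0.68), which comes from the data and not the labels. Against control they did not (0.26, -0.14 and 0.031 at 100 µg/ml, 0.23, -0.066 and -0.086 at 250 µg/ml). Alternatives covered scaling, dim genes, the arrays fitted, weights, moderation, the block, probe sets and leaving out arrays.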

Additional observations from a re-analysis of the deposited data

How the results depend on the processing

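At 100 µg/ml, where no member passed, 1 member (SSR3) did without dim genes (adjusted p 0.0188), with array weights (0.0225), with trend and robust moderation (0.0264) and when the treated arrays numbered 3 were dropped (0.0307), the last chosen after seeing the data. Leaving out 1 array gave 0 to 1 members, the 1 being SSR3 without control array 3 (0.0482). At 250 µg/ml, where SSR3 passed, 2 members passed with arrays centred on their median (SRPRB at 0.0404), 2 with array weights (SSR1 at 0.0341), 2 without the arrays numbered 3, and 3 each without dim genes (SRPRB at 0.0225, SSR1 at 0.0368) and with trend and robust moderation (SRPRB at 0.0308, SSR1 at 0.0419). There 0 passed with the 6 arrays of the comparison alone (SSR3 at 0.136), with probe sets that name several genes added (0.0550) and with the array number as a replicate block (0.0511). Leaving out 1 array gave 0 to 3 members. The number of all genes called changed with the setting too. At 250 µg/ml it was 78 in the main fit, 153 with arrays centred, 234 with array weights and 170 with trend and robust moderation. It was 140 without dim genes, 122 with the replicate block, 49 with several-gene probe sets and 1 with the 6 arrays alone. At 100 µg/ml it was 9 in the main fit, 73 with array weights, 57 without control array 3 and 10 without dim genes. The cause was not tested. The members' median difference stayed between 0.37 and 0.59 at 100 µg/ml, between 0.48 and 0.72 at 250 µg/ml and between 0.021 and 0.22 between the doses. Directions turned for small values: SSR4 at 100 µg/ml ranged from -0.67 to 0.12 when 1 array was left out. Between the doses, leaving out 1 array gave SSR2 -0.092 to 0.15, SEC61A1 -0.021 to 0.16, SEC62 -0.18 to 0.34 and SSR4 -0.37 to 0.067. SSR2 was -0.017 with arrays centred, and SEC62 -0.073 with the mean of its probe sets. Between 250 and 100 µg/ml no member passed in any alternative run. With 3 arrays a group, the 95% interval of SSR4 reached 0.91 to either side, so a difference of the size seen in SEC61A1 was not detectable for it.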
